A study of Homo sapiens with 52 samples.

Results

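The 8 genes described here make prostaglandins from membrane lipid, carry their signal or break them down: PLA2G4A, PTGS1, PTGS2, PTGES, PTGIS, PTGER2, PTGER4 and HPGD. They were chosen by symbol as 8 of the 59408 genes that each deposited table lists. A gene was tested where its level averaged 10 normalized counts or more across the 26 groups, as it did for 14898 genes, 7 of these 8 among them and HPGD not. WI-38 cells, a line of normal human lung fibroblasts that divides a limited number of times, were treated for 24 h with 0.009% SDS, 75 mM KCl or 250 nM doxorubicin (DXR), washed and cultured on. SDS is a detergent that damages the plasma membrane, KCl lets calcium into the cells and DXR damages DNA, and cells after these agents are called PMD-Sen, Ca2+-Sen and DDR-Sen. RNA was taken at the end of treatment (day 0), on each of the next 4 days, and on days 6, 8 and 16. Replicatively senescent cells (RS) had been passaged until they stopped dividing, and young cells without treatment served as the common control. Each of the 26 groups had 2 libraries. The study's methods call them independent samples, and neither these nor the labels say whether they came from separate cultures, so p-values measure the spread between libraries, which may be technical. No group carried an altered gene.

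The pathway runs from lipid to receptor in a few steps. PLA2G4A, the calcium-dependent cytosolic phospholipase A2, frees arachidonic acid from membrane lipid, and the cyclooxygenases PTGS1 and PTGS2 turn it into prostaglandin H2. PTGES then makes prostaglandin E2 and PTGIS makes prostacyclin, PTGER2 and PTGER4 are the prostaglandin E2 receptors that raise cyclic AMP, and HPGD is the enzyme that begins prostaglandin breakdown. PTGS1 is known as the constitutive cyclooxygenase and PTGS2 as the inducible form, and fibroblasts are a known source of prostaglandin E2 in the lung.

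Reads per library were recovered from the deposited means, each taken over the treated and untreated libraries of a comparison. The libraries of a group are called the deeper and the shallower, since their replicate numbers could not be told. Total counted reads ranged from 15.4 to 56.4 M (mega-reads) per library, with a median of 28.9 M. The untreated libraries, at 18.85 and 15.36 M, were among the shallowest, carry no day, and stand in all 25 comparisons, so that calls in different tables share their error. The RS libraries lay farthest apart of all groups, with a median gap of 0.18 on the log2 scale over genes of at least 100 normalized counts, where the median group had 0.09. The 9 fibroblast markers summed to between 263200 and 644000 normalized counts in every group. COL1A1 and COL1A2 made up 273000 and 171600 of the 599100 in untreated cells, so the sum says little of the others. COL3A1, PDGFRA, PDGFRB and THY1 were lowest on day 0 of PMD-Sen, at 3498, 1552, 3578 and 5344. In untreated cells they stood at 27310, 8308, 6966 and 14830. COL1A2 was at its highest on day 0 of PMD-Sen, at 256700. COL1A1, COL1A2 and VIM were lowest on day 0 of Ca2+-Sen, at 69270, 64100 and 37200, and VIM stood at 62960 in untreated cells. The sum was lowest there too, while PDGFRA was at its highest there, at 21730. DCN and LUM were lowest on day 1 of PMD-Sen, at 9635 and 1139, against 30700 and 3363 in untreated cells. CDH1 of the 4 epithelial markers, CDH5 and KDR of the 4 endothelial markers and CD3E of the white blood cell markers stayed under 10 normalized counts in all groups. Other markers did not. KRT18 ranged from 899 to 3259 normalized counts and KRT19 from 228 to 2125, the summed epithelial list ranging from 1391 to 3685. PECAM1, an endothelial marker, stood at 2.20 in untreated cells and 108 on day 0 of Ca2+-Sen, where its list reached its highest sum of 175 from a lowest of 26.8. CD14, a monocyte marker, stood at 21.7 in untreated cells and 203 on day 8 of Ca2+-Sen, where the white blood cell list reached its highest sum of 205 from a lowest of 12.5. The part of these changes in the results was not tested. These are bulk samples, in which fewer cells that express a gene and less of its RNA per cell cannot be told apart.

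In untreated cells the levels per kilobase of merged exon spanned a wide range. PTGS1 had 1150 normalized counts per kilobase and PTGER2 had 610, while PTGER4 had 85.5 and PTGES 45.4. PLA2G4A stood at 11.2 and PTGS2 at 8.19 on the same per-length scale, and PTGIS at 1.62. The constitutive cyclooxygenase was thus the most abundant of the 8 RNAs before treatment, and even at its highest, on day 0 of PMD-Sen, PTGS2 reached 157 normalized counts per kilobase. HPGD was close to absent.

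The largest rise belonged to PTGS2 (ENSG00000073756.11, GRCh38 chr1:186671791-186680427, minus strand). The libraries of untreated cells held 22.2 and 64.5 normalized counts, from 18 and 43 reads. PMD-Sen cells on day 0 held 1003 and 655 normalized counts, from 1057 and 632 reads. Both SDS-treated libraries lay far above both untreated ones. The log2 fold change in the authors' deposited table was 4.27 ± 0.75 (SE), or 19.2-fold (Wald test, Benjamini-Hochberg adjusted p = 1.03e-07). PTGS2 then stood at 98.0 and 141 normalized counts on day 1 (log2 fold change 1.48 ± 0.47, adjusted p = 0.0114) and at 262 and 182 on day 2 (2.36 ± 0.745, adjusted p = 0.0137). From day 3 to day 16 of PMD-Sen the group levels lay between 24.0 and 79.0 and none was called. KCl also raised PTGS2 on day 0, to 253 and 546 normalized counts, a 9.27-fold change (log2 3.21 ± 0.88, adjusted p = 0.000862). This rise was over by day 1, when the Ca2+-Sen libraries held 51.2 and 57.4 normalized counts, within the range of the untreated pair. After DXR the 8 group levels stayed between 48.2 and 183 normalized counts. On day 0 the DDR-Sen libraries held 96.8 and 67.2 (log2 fold change 0.94 ± 0.48, adjusted p = 0.142), both above the untreated pair but short of the threshold. The only call was on day 6, with 78.5 and 125 normalized counts (1.25 ± 0.50, adjusted p = 0.0484). On day 3 the DDR-Sen libraries differed 4.47-fold, at 66.8 and 299 normalized counts, and in RS they differed 3.94-fold, at 82.2 and 20.9. Neither was called. In RS the pair enclosed the untreated values, while on day 3 of DDR-Sen the lower library stood next to the higher untreated one.

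PTGS2 was thus called in 5 of 25 tables, each time higher. A fit of limma to the recovered libraries, added after the data were seen, did not call it on day 1 of PMD-Sen (adjusted p = 0.0898) or on day 6 of DDR-Sen (adjusted p = 0.138). Its call on day 2 of PMD-Sen was lost without the deeper untreated or the deeper treated library (adjusted p up to 0.251), and its calls on day 0 were kept without each library in turn.

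The 250 bases before the RefSeq start site of PTGS2 (GRCh38.p14, chr1:186680424-186680673, minus strand) are shown because this gene had the largest change. Capitals mark 6 matches. These are CGTCA, letters of a cyclic AMP response element, 58 to 54 bases before the start, TATAAA 32 to 27 bases before it, and GGAAA, the core of NFAT sites, at 4 places on either strand.
PTGS2: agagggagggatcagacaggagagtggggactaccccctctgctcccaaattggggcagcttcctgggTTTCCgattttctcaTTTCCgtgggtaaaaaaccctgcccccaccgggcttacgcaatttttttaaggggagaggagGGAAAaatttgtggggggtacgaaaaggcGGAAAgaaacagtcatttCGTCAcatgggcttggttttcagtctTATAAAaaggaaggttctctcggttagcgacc
Among 35116 promoters of the same length, 21.2% hold CGTCA on either strand, 10.7% hold TATAAA and 55.6% hold GGAAA. A match is a description of the letters only.

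PTGS1 (ENSG00000095303.15, chr9:122370530-122395703, plus strand), the constitutive cyclooxygenase, rose after KCl and fell after SDS. The untreated libraries held 6278 and 7048 normalized counts. Ca2+-Sen cells on day 0 held 18421 and 18956, almost identical to each other and well above every other group of the series. The log2 fold change was 1.49 ± 0.08, or 2.81-fold (adjusted p = 2.75e-68). DXR raised it on the same day to a group level of 10997, whose libraries could not be recovered (0.72 ± 0.10, adjusted p = 7.85e-11). No such rise was called after SDS. On day 0 the PMD-Sen libraries held 5819 and 5592 normalized counts, both below the untreated pair, with a log2 fold change of -0.22 ± 0.10 that was not called (adjusted p = 0.0662). On day 1 they held 4405 and 4122, the lowest level of the 26 groups (-0.64 ± 0.09, adjusted p = 2.2e-10). PTGS1 was also lower on days 2, 3 and 4 of PMD-Sen, with log2 fold changes of -0.45, -0.35 and -0.38, and its libraries lay on either side of the untreated pair on day 8. On day 16 the direction had turned, with 8828 and 9515 normalized counts (0.46 ± 0.14, adjusted p = 0.00636). PTGS1 was therefore low early and high late after the same treatment.

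In Ca2+-Sen cells PTGS1 stayed slightly higher on day 1 (log2 fold change 0.33 ± 0.08, adjusted p = 0.000951) and was higher again on day 8, at 7950 and 8442 normalized counts (0.30 ± 0.08, adjusted p = 0.0018). In DDR-Sen cells it was lower on day 2 (-0.28 ± 0.09, adjusted p = 0.0165) and on day 4 (-0.38 ± 0.09, adjusted p = 0.000187). RS cells held 7093 and 7332 normalized counts and were not called (0.11 ± 0.15, adjusted p = 0.652). Over 25 tables PTGS1 was higher in 5 and lower in 6. With limma, the calls on day 0 of Ca2+-Sen and on days 1, 2 and 16 of PMD-Sen were kept without each library in turn. Of the others, those on days 3 and 4 of PMD-Sen and days 2 and 4 of DDR-Sen were lost without the shallower untreated library, and those on days 1 and 8 of Ca2+-Sen without the deeper one, each also without 1 or both of its treated libraries (adjusted p from 0.0938 to 0.327 at the most).

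RefSeq gives 2 start sites for PTGS1, and both upstream windows are shown for comparison with the inducible gene. The first (GRCh38.p14, chr9:122370283-122370532, plus strand) holds TATAAA on the other strand and GGGCGG, a GC box, and the second (chr9:122375052-122375301) holds 1 GC box and 2 copies of GGAAA, again in capitals.
PTGS1 start 1: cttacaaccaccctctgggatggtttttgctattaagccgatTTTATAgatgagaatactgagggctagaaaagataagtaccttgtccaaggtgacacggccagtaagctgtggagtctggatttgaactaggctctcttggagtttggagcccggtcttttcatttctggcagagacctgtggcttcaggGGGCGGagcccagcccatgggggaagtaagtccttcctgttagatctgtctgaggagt
PTGS1 start 2: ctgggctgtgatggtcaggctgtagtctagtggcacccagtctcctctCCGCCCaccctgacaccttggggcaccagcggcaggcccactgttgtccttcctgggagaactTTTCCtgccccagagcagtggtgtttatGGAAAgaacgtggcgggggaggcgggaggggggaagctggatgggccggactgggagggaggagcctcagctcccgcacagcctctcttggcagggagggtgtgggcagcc
No CGTCA was found in either window, and the TATAAA of the first lies 208 to 203 bases before the start. GGGCGG stands in 42.6% of the promoters searched.

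**Figure D1:**
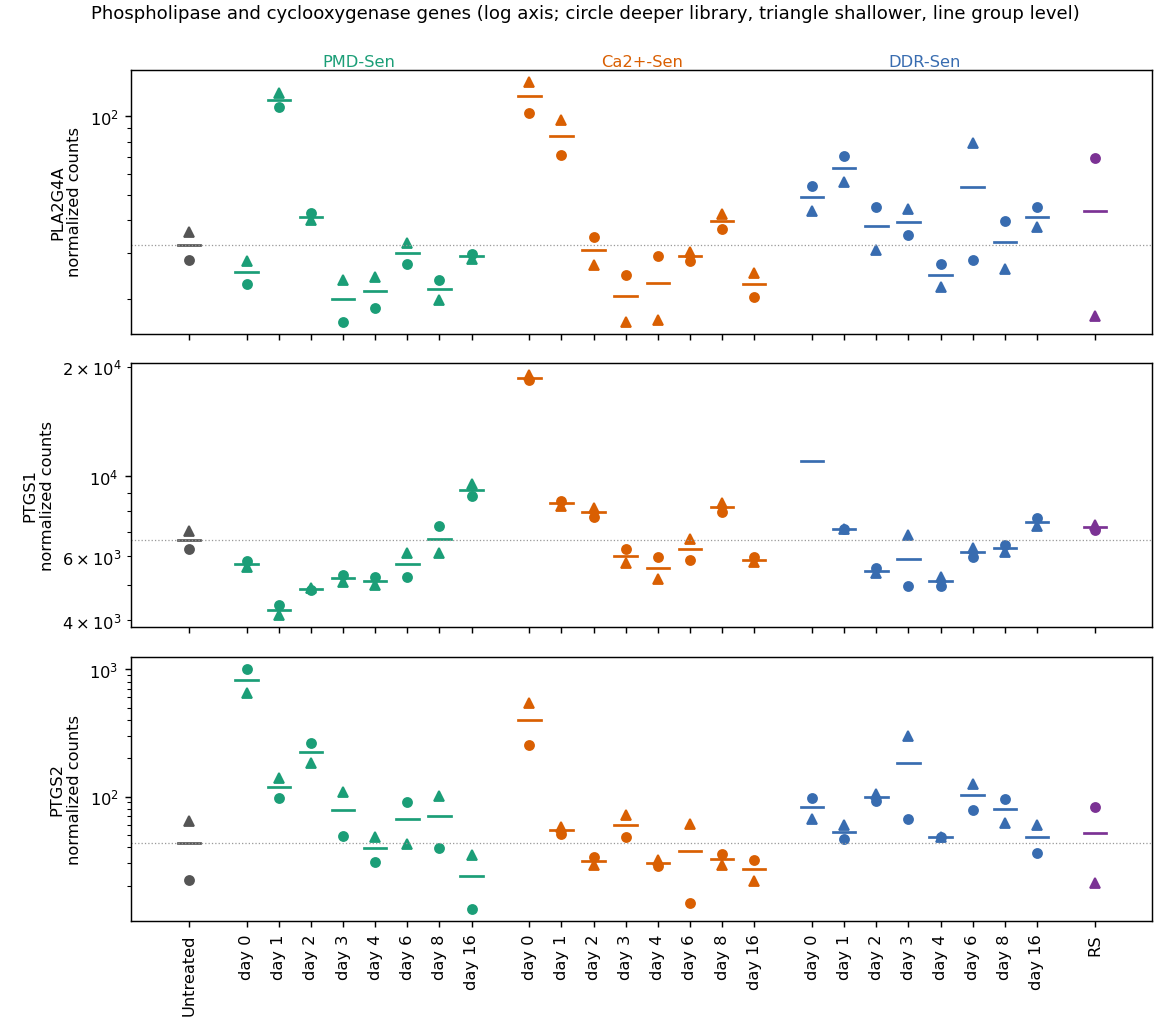
Normalized counts of PLA2G4A, PTGS1 and PTGS2 on log axes in the 26 groups, with a circle for the deeper library, a triangle for the shallower and a line for the group level. The dotted line is the untreated level. PTGS2 peaked on day 0 of PMD-Sen at 1003 and 655, PTGS1 on day 0 of Ca2+-Sen at 18421 and 18956, and the RS libraries lay apart for PLA2G4A and PTGS2.

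PLA2G4A (ENSG00000116711.9, chr1:186828953-186988981, plus strand), which releases arachidonic acid, was higher for a short time after KCl and after SDS, on different days. The untreated libraries held 28.3 and 36.0 normalized counts, from 23 and 24 reads. Ca2+-Sen cells held 103 and 136 on day 0, both above the untreated pair (log2 fold change 1.89 ± 0.40, 3.72-fold, adjusted p = 9.51e-06). They held 71.0 and 97.1 on day 1 (1.39 ± 0.44, adjusted p = 0.018) and overlapped the untreated pair on day 2. In PMD-Sen cells PLA2G4A was at 22.8 and 28.0 on day 0, not called, and at 109 and 123 on day 1 (1.85 ± 0.42, 3.61-fold, adjusted p = 0.000153). The increase thus came at the end of treatment with KCl and after the wash with SDS. By day 2 the PMD-Sen libraries held 42.5 and 39.98 normalized counts, a little above the untreated pair and not called. None of the 8 DDR-Sen tables called it, the highest level being 70.4 and 56.2 on day 1 (0.99 ± 0.47, adjusted p = 0.138). In RS the libraries differed 4.02-fold, at 69.2 and 17.2 normalized counts, from 170 and 33 reads. PLA2G4A was called in 3 of 25 tables. With limma, the call on day 1 of PMD-Sen was lost without the deeper untreated library (adjusted p = 0.0527) and that on day 1 of Ca2+-Sen without each of its 4 libraries (adjusted p up to 0.255).

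PLA2G4A and PTGS2 lie 148525 bases apart on chromosome 1 and point away from each other, with the noncoding gene PACERR as the only annotated gene between them. Their peaks in PMD-Sen were a day apart, with PTGS2 on day 0 and PLA2G4A on day 1, while in Ca2+-Sen both peaked on day 0. The 250 bases before PLA2G4A held none of the 6 motifs searched.

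PTGES (ENSG00000148344.10, chr9:129738331-129753047, minus strand), which makes prostaglandin E2 from the product of the cyclooxygenases, moved in opposite directions after SDS and KCl. The untreated libraries held 76.3 and 95.9 normalized counts. PMD-Sen cells on day 0 held 27.5 and 22.8, from 29 and 22 reads, below both untreated libraries (log2 fold change -1.77 ± 0.49, adjusted p = 0.00128). Ca2+-Sen cells on the same day held 216 and 229, above both (1.37 ± 0.27, 2.59-fold, adjusted p = 1.79e-06). PTGES was therefore at its lowest of all groups in the cells in which PTGS2 was at its highest. It was still higher in Ca2+-Sen on day 1, at 155 and 167 (0.91 ± 0.30, adjusted p = 0.023), returned to between 88.8 and 112 on days 2 to 6, and was higher again on day 8, at 168 and 184 (1.04 ± 0.29, adjusted p = 0.00165). In PMD-Sen the group levels of days 1 to 8 lay between 61.6 and 96.2. On day 16 the libraries held 151 and 198 normalized counts, both above the untreated pair (1.02 ± 0.34, adjusted p = 0.015). No DDR-Sen table called PTGES, with group levels from 57.2 to 121, and RS cells held 63.1 and 50.6 (-0.59 ± 0.38, adjusted p = 0.287). In all, PTGES was higher in 4 of 25 tables and lower in 1. With limma, only the call on day 1 of Ca2+-Sen was lost, without the deeper untreated library or either treated one (adjusted p up to 0.186).

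The window before PTGES (GRCh38.p14, chr9:129753043-129753292, minus strand), shown because its RNA went opposite ways under the inducers, holds 2 GC boxes and 1 GGAAA in capitals, and neither TATAAA nor CGTCA.
PTGES: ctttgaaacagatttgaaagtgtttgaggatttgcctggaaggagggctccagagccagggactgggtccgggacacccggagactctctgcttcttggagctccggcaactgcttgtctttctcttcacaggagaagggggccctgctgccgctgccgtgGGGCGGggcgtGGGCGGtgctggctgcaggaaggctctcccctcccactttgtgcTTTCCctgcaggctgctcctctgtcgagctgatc

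PTGIS (ENSG00000124212.5, chr20:49503874-49568146, minus strand), the prostacyclin synthase, was counted at low numbers in most libraries. The untreated libraries held 5 and 8 reads, or 6.15 and 12.0 normalized counts. RS cells held 90 and 75 reads, or 36.6 and 39.1 normalized counts, both above the untreated pair and close to each other (log2 fold change 2.08 ± 0.70, adjusted p = 0.0169). On day 16 of PMD-Sen PTGIS was also called higher (2.51 ± 0.91, adjusted p = 0.0299), but this rests on the shallower library, with 114 reads and 87.9 normalized counts against 21 reads and 14.5 in the deeper. Without that library the limma difference was 0.72 (adjusted p = 0.205), and without the deeper untreated library the RS call was lost as well (adjusted p = 0.182). On day 0 of PMD-Sen PTGIS had 1 read in the deeper library and 0 in the shallower. Relative to 13 reads in the untreated libraries and to library size, this is a ratio of 0.0564 with a 95% counting interval from 0.00133 to 0.375, and the deposited comparison did not call it (adjusted p = 0.098). PTGIS was called in 2 of 25 tables, both higher.

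PTGER2 (ENSG00000125384.6, chr14:52314305-52328606, plus strand), a prostaglandin E2 receptor coupled to cyclic AMP, was lower than in untreated cells in 22 of 25 tables. These were 7 of 8 tables of PMD-Sen, 6 of 8 of Ca2+-Sen, 8 of 8 of DDR-Sen, and RS. The untreated libraries held 1609 and 1409 normalized counts. PMD-Sen cells on day 0 held 258 and 304, the lowest of all groups (log2 fold change -2.43 ± 0.16, adjusted p = 9.63e-50). RS cells held 466 and 536 (-1.59 ± 0.19, adjusted p = 9e-16). After SDS the level came part of the way back, to group levels from 779 to 970 normalized counts on days 1 to 8. By day 16 the PMD-Sen libraries held 982 and 1591, 1.62-fold apart, and the difference was not called (-0.23 ± 0.23, adjusted p = 0.552). After KCl it was lower from day 0, at 931 and 1086 (-0.59 ± 0.13, adjusted p = 1.78e-05), through day 6. It then stood at 1571 and 1583 on day 8, level with untreated cells (0.06 ± 0.11, adjusted p = 0.73), and at 1211 and 1234 on day 16 (-0.31 ± 0.11, adjusted p = 0.0589). After DXR the levels were lower on the later days than on day 0, a difference that was not tested. DDR-Sen libraries held 1204 and 1075 on day 0 (-0.41 ± 0.13, adjusted p = 0.0114), 697 and 619 on day 6 (-1.20 ± 0.13, adjusted p = 1.43e-17) and 673 and 798 on day 16 (-1.04 ± 0.15, adjusted p = 2.51e-10). PTGER2 thus stayed low in DDR-Sen on day 16.

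Both libraries lay below both untreated ones in 22 of the 24 groups in which they were recovered. In single groups 26.4% to 42.5% of tested genes did so, and the same untreated pair stands behind each count. With limma, 19 of the 21 calls that could be refitted were kept, those on day 2 of Ca2+-Sen (adjusted p = 0.0552) and day 0 of DDR-Sen (adjusted p = 0.0917) being lost. Without the deeper untreated library, which held the higher value, 9 more were lost, and the call on day 6 of Ca2+-Sen was lost without its shallower library (602 normalized counts against 1097 in the deeper, adjusted p = 0.105). The calls in RS, on days 0, 1, 2 and 6 of PMD-Sen and on days 4, 6, 8 and 16 of DDR-Sen were kept without each library.

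The window before PTGER2 (GRCh38.p14, chr14:52314062-52314311, plus strand) is shown as that of the gene lower in most tables. Capitals mark CGTCA on the other strand, 137 to 133 bases before the start, and 2 GC boxes.
PTGER2: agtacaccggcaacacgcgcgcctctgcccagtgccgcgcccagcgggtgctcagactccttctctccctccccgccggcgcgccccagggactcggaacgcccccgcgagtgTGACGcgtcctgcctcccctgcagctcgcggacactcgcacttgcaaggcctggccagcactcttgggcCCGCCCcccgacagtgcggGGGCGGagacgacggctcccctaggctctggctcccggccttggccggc

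PTGER4 (ENSG00000171522.5, chr5:40679498-40693735, plus strand), the other receptor of this kind, was called on day 0 only, and in different directions. The untreated libraries held 378 and 298 normalized counts. On day 0 PMD-Sen cells held 121 and 140, below both (log2 fold change -1.37 ± 0.26, adjusted p = 6.21e-07). Ca2+-Sen cells held 189 and 211, also below both (-0.76 ± 0.21, adjusted p = 0.0009). DDR-Sen cells held 467 and 509, above both (0.53 ± 0.185, adjusted p = 0.0196). Thereafter group levels stayed between 274 and 444 normalized counts in all 3 series of days, and no later table called it. The RS libraries differed 3.15-fold, at 216 and 680 normalized counts from 530 and 1304 reads, on either side of the untreated pair (0.41 ± 0.49, adjusted p = 0.625). In the limma fit the call on day 0 of DDR-Sen was not made (adjusted p = 0.0833), and that on day 0 of Ca2+-Sen was lost without the deeper untreated or the deeper treated library (adjusted p up to 0.122). The RS difference was 1.01 without the deeper RS library and -0.64 without the shallower. Before PTGER4 (GRCh38.p14, chr5:40679665-40679914, plus strand) stand 4 GC boxes and 1 GGAAA, with no CGTCA.
PTGER4: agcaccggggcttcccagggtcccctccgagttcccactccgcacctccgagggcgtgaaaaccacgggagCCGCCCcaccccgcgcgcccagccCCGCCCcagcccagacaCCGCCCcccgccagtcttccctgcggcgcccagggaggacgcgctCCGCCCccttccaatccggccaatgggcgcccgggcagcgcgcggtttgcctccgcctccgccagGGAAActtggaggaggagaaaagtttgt

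**Figure D2:**
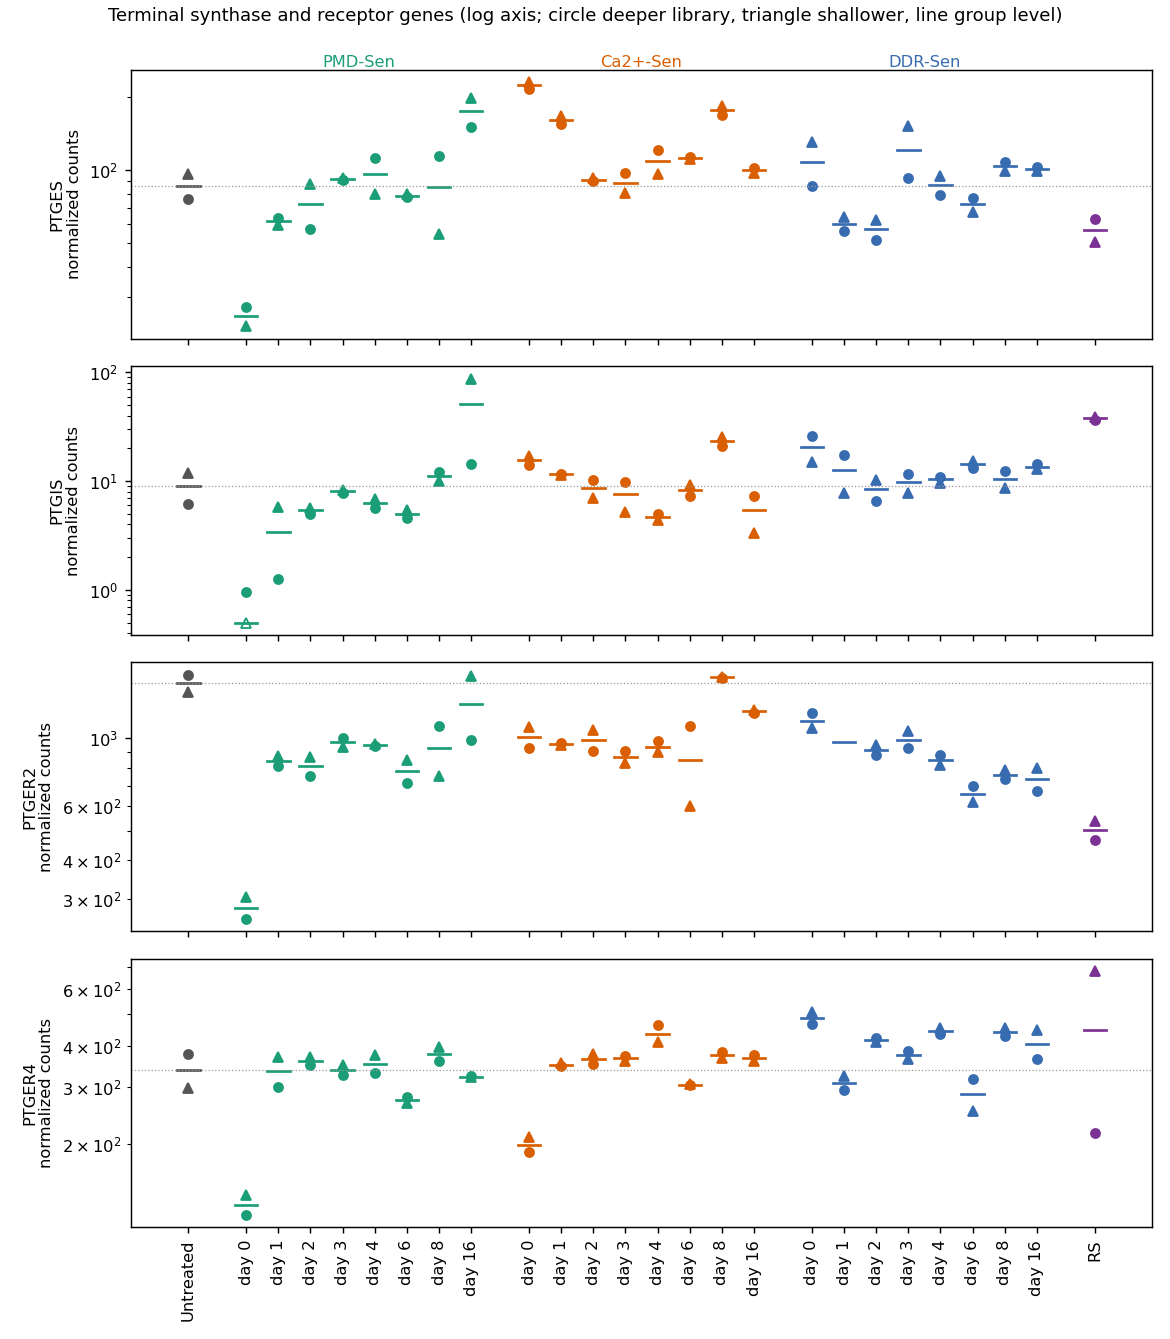
Normalized counts of PTGES, PTGIS, PTGER2 and PTGER4 on log axes in the 26 groups, marked as for the cyclooxygenases. The open triangle is a library with 0 reads, drawn near the bottom of the axis. PTGER2 lies under the dotted untreated level in most groups and is lowest on day 0 of PMD-Sen, at 258 and 304, and PTGER4 has its lowest values, 121 and 140, in the same group.

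HPGD (ENSG00000164120.13, chr4:174490177-174523154, minus strand), the enzyme that begins the breakdown of prostaglandin E2, was nearly unread. It had 8 reads in 6 of 52 libraries, and all 6 were DDR-Sen libraries, 1 read in each library of day 0, 2 reads in 1 library each of days 4 and 8, and 1 read in 1 library each of days 6 and 16. This is 0.0147 reads per M over 543 M counted reads. No read was found in 494 M of PMD-Sen, 492 M of Ca2+-Sen, 103 M of RS and 34.2 M of untreated cells, counts of 0 that allow up to 0.00608, 0.00609, 0.0292 and 0.0877 reads per M, counting error only. The DDR-Sen level was thus not detectable at the depth of the untreated and RS libraries.

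**Figure D3:**
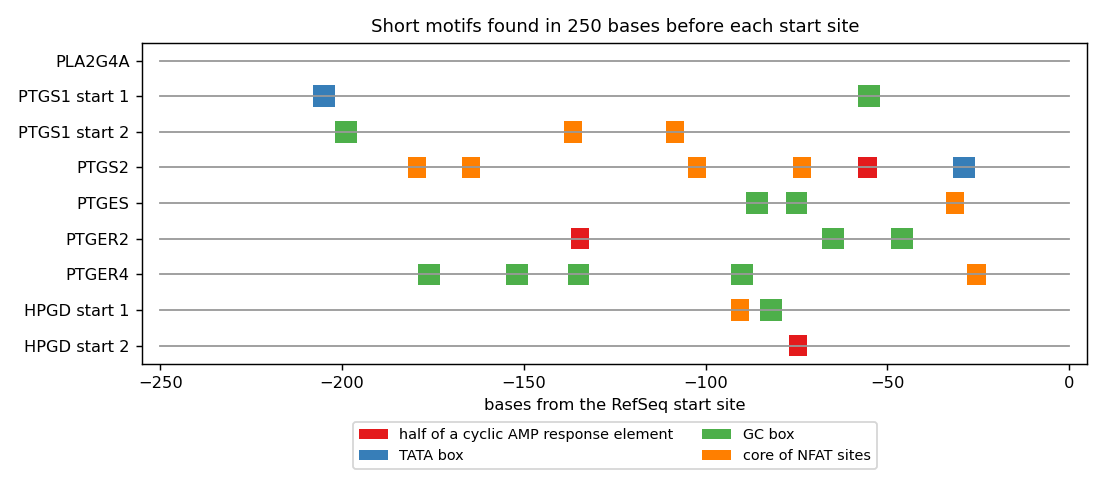
Matches of 4 motifs in the 250 bases before each RefSeq start site, by distance from the start in bases. Rows are 9 windows of 7 genes. PTGS2 has a match to the cyclic AMP response letters and a TATA box close to the start, PTGER4 has 4 GC boxes, and PLA2G4A has none.

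TGANTCA, the letters of AP-1 sites, and CACGTG, those of E-boxes, stand in 6.57% and 6.34% of the promoters searched and were found before none of the 7 genes with a window. HPGD has 2 start sites, with CGTCA before the second only. The RefSeq table had no entry for PTGIS.

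The 7 tested genes were then counted by table. On day 0 the members called were 1 higher and 3 lower in PMD-Sen, where 19.8% of tested genes were higher and 20.2% lower. They were 4 higher and 2 lower in Ca2+-Sen, where 23.6% were higher and 26.5% lower, and 2 higher and 1 lower in DDR-Sen, where 12.9% were higher and 14.9% lower. Large shares of all tested genes were thus called on day 0. On day 16 the members were 3 higher and 0 lower in PMD-Sen (9.63% and 11.5% of tested genes). None was called in Ca2+-Sen (5.79% and 6.08%), and 1 was lower and none higher in DDR-Sen (13.2% and 16.7%). In RS 1 was higher and 1 lower (11.6% and 11.5%). By day, the share of tested genes called in either direction in PMD-Sen was 39.9%, 19.7%, 15.8%, 11.5%, 15.7%, 12.8%, 11.8% and 21.2% from day 0 to day 16. It was 50.1%, 12.5%, 4.33%, 10.5%, 12%, 10.2%, 33.3% and 11.9% in Ca2+-Sen. In DDR-Sen it was 27.9%, 19.5%, 12.7%, 11.6%, 18.4%, 24.5%, 22% and 29.8%, and in RS 23.1%. Of the 7 members, between 0 and 6 were called per table. PTGER2 was the 1 member called on days 2, 3, 4 and 6 of Ca2+-Sen, on days 6 and 8 of PMD-Sen and on days 1, 3, 8 and 16 of DDR-Sen.

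**Figure D4:**
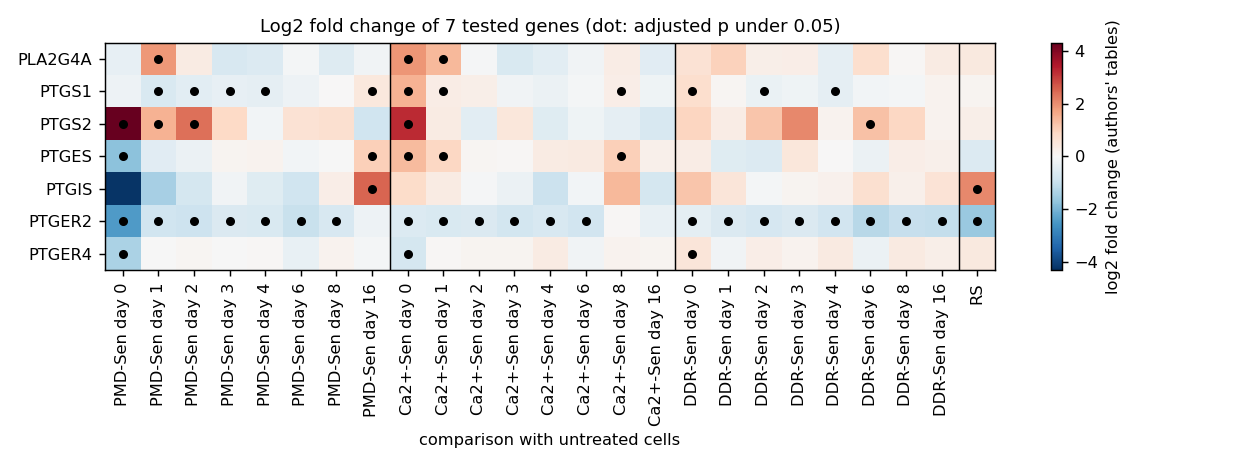
Log2 fold changes of the 7 tested genes (rows) against untreated cells in the 25 deposited tables (columns), red for higher and blue for lower, with a dot where the adjusted p-value was under 0.05. PTGER2 is marked lower in 22 columns, and the largest value is PTGS2 on day 0 of PMD-Sen, at 4.27.

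The inducers were then compared with each other on the same day by the difference of their log2 fold changes. Over 8 days, 8 of 56 values of the members were called for PMD-Sen against Ca2+-Sen (6.47% of all tested values), 6 of 56 for PMD-Sen against DDR-Sen (6.55%) and 7 of 56 for Ca2+-Sen against DDR-Sen (7.83%). Of these 21 calls, 12 fell on day 0 and none on days 3, 4 or 6. The shares of all tested values pool the 8 days, and no share by day stands beside these counts. On day 0, 39.9%, 50.1% and 27.9% of tested genes were called against untreated cells in PMD-Sen, Ca2+-Sen and DDR-Sen. SDS and KCl differed in 4 members on day 0. At the end of treatment PTGES was lower in PMD-Sen than in Ca2+-Sen by a log2 difference of -3.15 ± 0.56 (adjusted p = 2.1e-07). PTGS1 differed in the same direction, by -1.71 ± 0.13 (adjusted p = 1.86e-36), as did PLA2G4A, by -2.23 ± 0.77 (adjusted p = 0.0117), and PTGER2, by -1.84 ± 0.205 (adjusted p = 7.54e-18). PTGS2 rose under both agents, and its difference of 1.05 ± 1.16 was not called (adjusted p = 0.523). The differences of PTGER4 (-0.61 ± 0.33, adjusted p = 0.138) and PTGIS (-4.99 ± 2.27, adjusted p = 0.0679) were not called either. PTGER2 and PTGER4 were lower than in untreated cells under both agents.

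Against DXR on day 0, PMD-Sen had more PTGS2 (3.33 ± 0.89, adjusted p = 0.00125) and less PTGS1 (-0.95 ± 0.15), PTGES (-2.10 ± 0.60), PTGER2 (-2.02 ± 0.21) and PTGER4 (-1.90 ± 0.32). Ca2+-Sen had more PTGS1 than DDR-Sen (0.77 ± 0.13) and more PTGES (1.04 ± 0.44, adjusted p = 0.0461), and less PTGER4 (-1.29 ± 0.28). PTGER4 was thus higher after DXR than after either other agent, while PTGS1 and PTGES after DXR lay between them. On day 1 PTGS1 was lower in PMD-Sen than in Ca2+-Sen (-0.98) and in DDR-Sen (-0.74), and PTGES was higher in Ca2+-Sen than in DDR-Sen (1.42, adjusted p = 0.0408). On day 2 PTGS1 in PMD-Sen was still below Ca2+-Sen (-0.70), and Ca2+-Sen was above DDR-Sen (0.53). On day 8 PTGER2 in Ca2+-Sen was above PMD-Sen (-0.77 for PMD-Sen minus Ca2+-Sen) and above DDR-Sen (1.05), and on day 16 it was still above DDR-Sen (0.73). PTGS1 on day 16 was higher in PMD-Sen than in Ca2+-Sen (0.64), the opposite order from day 0. Because the error of the shared untreated libraries enters both fold changes, this test calls too few. The limma fit, which takes the treated libraries directly, gave 19 of the 19 calls that could be refitted, and 17 were kept without each library. The difference of PTGER2 on day 8 between PMD-Sen and Ca2+-Sen was lost without the shallower PMD-Sen library (adjusted p = 0.227), and that on day 16 between Ca2+-Sen and DDR-Sen without the deeper DDR-Sen library (adjusted p = 0.0656).

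**Figure D5:**
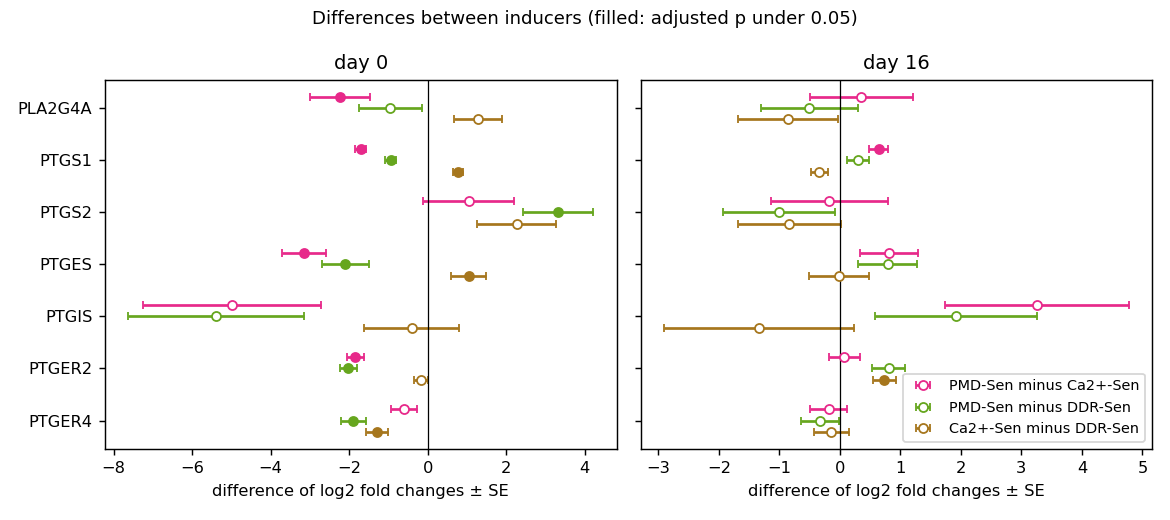
Differences of log2 fold changes ± SE between inducers on day 0 (left) and day 16 (right) for the 7 tested genes, with filled points for adjusted p-values under 0.05. On day 0 PTGES was -3.15 for PMD-Sen minus Ca2+-Sen and PTGS2 3.33 for PMD-Sen minus DDR-Sen, and on day 16 only PTGS1 and PTGER2 have a filled point.

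Day 16 of each inducer was also set beside RS. PTGER2 was higher on day 16 of PMD-Sen than in RS, by 1.36 ± 0.295 (adjusted p = 0.00238), where 0.685% of tested genes were called. It was higher on day 16 of Ca2+-Sen, by 1.29 ± 0.22 (adjusted p = 4.77e-07), where 4.25% were called. For DDR-Sen the difference was 0.55 ± 0.24 and not called (adjusted p = 1), where 0.148% of tested genes were called. No other member was called in these 3 comparisons. PTGES on day 16 of PMD-Sen was above RS in both libraries, 151 and 198 normalized counts against 63.1 and 50.6, and the difference of 1.61 ± 0.51 did not pass (adjusted p = 0.125). The limma fit called 7 of the 21 values, that of PTGES among them (1.59, adjusted p = 2.21e-05). The shares of tested genes above belong to the other test and cannot be set beside these 7.

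Genes of the pathway were also counted from lists chosen with earlier results of these data known. These lists hold the 8 members too, so their counts and medians are not separate from the results above. Among 11 tested cyclooxygenases and terminal synthases, 6 were higher and 1 lower on day 0 of Ca2+-Sen (23.6% and 26.5% of all tested genes), and the list's median log2 fold change was 0.83, that of all tested genes -0.04. PTGS1, PTGS2 and PTGES are among the 6 higher there. AKR1B1, an aldose reductase that can make prostaglandin F2 alpha, went from 5840 to 80600 normalized counts there (3.79 ± 0.26, adjusted p = 2.64e-46), and AKR1C3, another aldo-keto reductase with this activity, from 12.0 to 230 (4.24 ± 0.44, adjusted p = 1.05e-20). On day 0 of PMD-Sen the same list had 3 higher and 3 lower (19.8% and 20.2% of all tested genes). TBXAS1, the thromboxane synthase, was lower there (-0.93 ± 0.19) and higher on day 16 of PMD-Sen (1.08 ± 0.19), on day 16 of Ca2+-Sen (0.44 ± 0.14), on day 16 of DDR-Sen (1.01 ± 0.17) and in RS (1.44 ± 0.25), as well as on day 0 of Ca2+-Sen (0.83 ± 0.13). Over all 25 comparisons TBXAS1 was called higher in 9 and lower in 8. AKR1C3 was also higher in these 4 late groups, with log2 fold changes of 3.01, 1.95, 2.58 and 3.37. PTGES3, a further prostaglandin E synthase and cochaperone, was lower in 15 of 25 tables and higher in none, with the same untreated pair behind each.

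Of 8 tested prostanoid receptors, 7 were lower on day 0 of Ca2+-Sen and none higher (26.5% and 23.6% of all tested genes), the median of the list being -0.70 on the log2 scale. PTGER2 and PTGER4 are among the 7 lower there. PTGIR, the prostacyclin receptor, fell from 96.0 to 21.0 normalized counts (-2.19 ± 0.42) and PTGFR, the prostaglandin F receptor, from 317 to 85.0 (-1.90 ± 0.24). On day 0 of PMD-Sen 4 were lower and 1 higher (20.2% and 19.8% of all tested genes), with a median of -1.20, among them TBXA2R, the thromboxane receptor (-2.05 ± 0.43). In RS 1 was lower and 1 higher (11.5% and 11.6%). PTGER2 was the one receptor called lower in most tables, and PTGFR came next with 5 of 25.

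Among 12 tested genes of arachidonate release and return to lipid, 4 were higher and 4 lower on day 0 of both PMD-Sen (19.8% and 20.2% of all tested genes) and Ca2+-Sen (23.6% and 26.5%), and 6 were higher and 1 lower on day 16 of DDR-Sen (13.2% and 16.7%). PLA2G4C, a related phospholipase that does not need calcium, was higher in 9 of 25 tables, which share the untreated pair. It rose the most in RS (24.6 to 107 normalized counts, 2.12 ± 0.44). LPCAT3, which puts polyunsaturated fatty acids back into phospholipid, was higher on day 0 of Ca2+-Sen (0.96 ± 0.18) and lower on day 0 of PMD-Sen (-1.03 ± 0.27). Of 5 tested genes of prostaglandin transport and breakdown, PTGR1, a prostaglandin reductase, rose from 2670 to 10200 normalized counts on day 0 of Ca2+-Sen (1.94 ± 0.09), and ABCC4, an exporter of prostaglandins, was lower on day 0 of all 3 inducers (-0.97, -0.81 and -0.58 for PMD-Sen, Ca2+-Sen and DDR-Sen). Over all 25 comparisons ABCC4 was called higher in 5 and lower in 4. Only 2 of 14 genes of the lipoxygenase branch, ALOX12 and LTA4H, were tested, and ALOX5 was listed at 0 in every table.

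The mRNA of PTGS2 is known for AU-rich elements, to which regulatory proteins bind. Any part of such proteins in the level of PTGS2 was not tested. All 7 tested genes for such proteins were lower on day 0 of PMD-Sen, where 20.2% of tested genes were, with ZFP36L2 falling from 3220 to 904 normalized counts (-1.83 ± 0.12). On day 0 of Ca2+-Sen and of DDR-Sen 3 of the 7 were lower and none higher, where 26.5% and 14.9% of all tested genes were lower. HNRNPD was lower in 25 of 25 tables, all of them against the same untreated pair. Of 5 tested genes that cyclic AMP is known to induce, 4 were higher and 1 lower on day 0 of PMD-Sen (19.8% and 20.2% of all tested genes), PDE4D rising from 123 to 1030 normalized counts (3.07 ± 0.19) and RGS2 falling from 118 to 43.9 (-1.43 ± 0.43). RGS2 was higher on day 16 of all 3 inducers and in RS, with log2 fold changes from 1.06 to 1.87.

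Over the 26 groups, levels on the log2 scale were compared by Pearson's r as a description, since groups share the scaling and the untreated libraries. PTGER2 and PTGES had an r of 0.72, PTGS1 and PTGES 0.59, PTGS2 and PTGER2 -0.58 and PTGS2 and PTGER4 -0.64. The genes most like PTGS1 were THOC6 (0.88), MYOCD (0.88) and ISYNA1 (0.87). Those most like PTGS2 were CCDC47 (0.88), AMMECR1L (0.88) and TMEM104 (0.85). BCL3 (0.86), HS6ST1 (0.85) and PLEKHA5 (0.80) were the nearest to PTGES. NEURL1B (0.87) and TNS2 (0.87) came nearest to PTGER2, and NR2F2-AS1 (0.89), DOP1A (0.88) and LRRN3 (0.84) to PTGER4. The other 3 members have mean levels under 100 normalized counts and were not compared.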

How the data were processed

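Messenger RNA was sequenced in 52 libraries of WI-38 cells. The submitters' processing notes list Trim Galore, HISAT2, HTSeq, featureCounts and DESeq2, without versions, and the GRCh38 build. The deposited files hold 25 distinct tables, in which the authors compared each group with untreated cells. These give a mean signal per gene (normalized counts), a log2 fold change and the standard error of it, a Wald score (the fold change over its error) and a p-value with its adjusted value, all as deposited by the authors. No separate values per library were given, so those comparison columns are the source of the fold changes and Wald p-values printed here. The differences between groups were calculated from the same columns, and the limma values come from the recovered libraries.

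Group levels were put on 1 scale by 8645 genes above 200 normalized counts. Read counts of single libraries were recovered from the digits of the deposited means, for 97.8% of values of tested genes. Each is a weighted mean of whole reads over the treated and untreated libraries of a comparison, which leaves only certain values possible. Over 14898 genes the deposited p-values were then readjusted (Benjamini-Hochberg) and called under 0.05. For pairs of inducers the difference of log2 fold changes was divided by its error, taken as the root of both squared errors added up, and given a two-sided normal p-value. limma 3.58.1 (R 4.3.3) on log2(level + 1) of the recovered libraries was added after seeing the data. The recovery of reads, the limma fit with all libraries and the test of pairs were run on simulated data, the other steps not. The simulated pairs had independent errors, while the real ones share the untreated libraries. Scripts ran in Python 3.11.15 with SciPy 1.17.1, NumPy 2.4.6, matplotlib 3.10.9 and pandas 2.3.3. Depth ranged from 15.4 to 56.4 M counted reads, and intervals cover counting error only. Motifs were searched on both strands in the 250 bases before RefSeq start sites. The 8 genes and 7 pathway lists were chosen with earlier results of these data known. Of each list the genes named are the 3 with the largest called change or the highest level, and for each member with a mean of at least 100 the 3 genes with the highest correlation are named, except for items that are not reported here.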

Additional observations from a re-analysis of the deposited data

Results flagged for a closer look

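These results stand out because the effects of 2 inducers on the same day differed by a test of the difference itself. All are differences of log2 fold changes, with every adjusted p-value under 0.05. On day 0, PMD-Sen minus Ca2+-Sen was -2.23 for PLA2G4A, -1.71 for PTGS1, -3.15 for PTGES and -1.84 for PTGER2. PMD-Sen minus DDR-Sen was -0.947 for PTGS1, 3.33 for PTGS2, -2.10 for PTGES, -2.02 for PTGER2 and -1.90 for PTGER4. Ca2+-Sen minus DDR-Sen was 0.766 for PTGS1, 1.04 for PTGES and -1.29 for PTGER4.

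On day 1, PTGS1 differed by -0.977 for PMD-Sen minus Ca2+-Sen and by -0.742 for PMD-Sen minus DDR-Sen, and PTGES by 1.42 for Ca2+-Sen minus DDR-Sen. On day 2, PTGS1 differed by -0.701 for PMD-Sen minus Ca2+-Sen and by 0.533 for Ca2+-Sen minus DDR-Sen. On day 8, PTGER2 differed by -0.766 for PMD-Sen minus Ca2+-Sen and by 1.05 for Ca2+-Sen minus DDR-Sen. On day 16, PTGS1 differed by 0.641 for PMD-Sen minus Ca2+-Sen and PTGER2 by 0.734 for Ca2+-Sen minus DDR-Sen.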

How the results depend on the processing

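Of the 51 calls against untreated cells, 20 were higher and 31 lower. Where the log2 fold change also had to reach 1 in either direction, 6 lower calls were left and 14 higher. Called differences between inducers on the same day numbered 21, 12 with a difference of at least 1 in size, 35 with the treated part of the standard errors alone and 34 with limma. Differences between day 16 and RS numbered 2, and 7 with limma. The counts with the treated part of the standard errors and with limma have no share of all tested genes beside them. Leaving out 1 library at a time, limma made 8 to 17 higher and 19 to 29 lower calls, with 8 and 19 without the deeper untreated library and 13 higher without either library of day 1 of Ca2+-Sen. A library left alone in its group was assumed to vary like those of the other groups. The following differences changed sign, none of them called in the deposited tables, and the cause was not tested. In PMD-Sen on day 16 the difference ranged from -0.295 to 0.0399 for PLA2G4A, from -0.616 to 0.079 for PTGER2 and from -0.228 to 0.112 for PTGER4. In RS it ranged from -0.843 to 1.10 for PLA2G4A, with -0.00687 without the deeper untreated library. It ranged from -0.789 to 1.14 for PTGS2, with -0.581 without that library, and from -0.639 to 1.01 for PTGER4. On day 16 of Ca2+-Sen it ranged from -1.26 to 0.243 for PTGS2 and from -0.0385 to 0.301 for PTGER4. On day 16 of DDR-Sen it ranged from -0.473 to 1.03 for PTGS2, with -0.027 without the shallower treated library. Centring on the median of tested genes and scaling by library totals left all 49 values of day 0, day 16 and RS on their side of the threshold. Testing every gene with a p-value ended the call of PTGIS on day 16 of PMD-Sen (adjusted p = 0.0596), and testing only genes of at least 100 normalized counts added that of PTGER2 on day 16 of Ca2+-Sen (adjusted p = 0.0449). PTGIS and PLA2G4A are limited by depth, with 5 and 8 and with 23 and 24 reads in the untreated libraries. No paired analysis was possible because the recovered libraries carry no replicate numbers.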
